A study of Mus musculus with 6 samples.

Results

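The mitochondrial respiratory chain was examined through 89 nuclear genes, of 19752 genes measured, in mature CD4 single-positive (SP) thymocytes that lack both Jmjd3 and Utx or carry them. The members were taken by name from the array annotation: gene symbols starting with Nduf, Uqcr, Cox4, Cox5, Cox6, Cox7, Cox8 or Atp5, together with Sdha, Sdhb, Sdhc and Sdhd. Where a gene had more than 1 row, the row with the highest mean over all arrays stood for it, which concerned 17 members. The list held 34 subunits of complex I, 4 of complex II, 8 of complex III, 19 of complex IV, 17 of complex V, and 7 Ndufaf genes, which encode factors that assemble complex I. Ndufa4 and Ndufa4l2, named after complex I, were placed with complex IV, where the Ndufa4 protein is now assigned.

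The respiratory chain sits in the inner mitochondrial membrane. Complex I oxidizes NADH and complex II oxidizes succinate, both pass electrons to ubiquinone, complex III hands them on to cytochrome c, and complex IV gives them to oxygen. The proton gradient built on the way drives complex V, the ATP synthase. In thymocytes, as in other cells, most subunits are encoded in the nucleus and a smaller set in mitochondrial DNA.

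The study asked how gene expression in mature thymocytes depends on Jmjd3 and Utx, the enzymes that remove methyl groups from lysine 27 of histone H3. RNA from sorted cells was hybridized to 6 Affymetrix arrays, 3 wild-type and 3 dKO. The dKO thymocytes had floxed Kdm6a (Utx) and Kdm6b (Jmjd3) alleles deleted by a Cd4-Cre transgene, which acts from the double-positive stage on and removes exons that encode the catalytic JmjC domain. The wild-type thymocytes came from Cre-negative controls. Cells of both genotypes carried the OT-II T-cell receptor transgene and were sorted as Vα2hi CD24lo CD4 SP cells. The labels give no age, and they name the arrays biological replicates without stating separate mice, so p-values measure only the spread between these arrays.

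Values are log2 expression values as deposited, and each difference is dKO minus wild-type with the standard error of limma's fit (3 arrays per genotype). A gene was called when its Benjamini-Hochberg adjusted p over all 19752 genes was under 0.05. Kdm6a averaged 10.16 ± 0.05 (SD, n = 3) in wild-type and 9.49 ± 0.09 in dKO arrays, a fall by 0.67 (limma, adjusted p = 2.6e-05). A row that summarizes a whole gene need not show the loss of some exons, and Kdm6b averaged 9.90 ± 0.07 and 9.81 ± 0.09 and was not called (limma, adjusted p = 0.324). Array values correlated at 0.998 to 0.999 within a genotype and at 0.991 to 0.993 between genotypes. The 6 measured T-cell and CD4 SP markers averaged between 10.87 and 10.99 on every array, and Cd5 alone among them was called, lower in dKO. They include Cd8a and Cd24a, against which the sort selects. Cd8a averaged 7.77 in wild-type and 7.60 in dKO arrays and Cd24a 8.03 and 8.15, above the array medians of 6.27 to 6.32. Markers of B cells, macrophages, dendritic cells, granulocytes, erythroid cells and thymic epithelium averaged at most 5.82 on every array, below the array medians of 6.27 to 6.32. Single markers lay above those medians, in wild-type Cd79b at 7.14, Cd68 at 7.03 and Krt8 at 6.66. Cd79b and Cd68 were lower in dKO and Lyz2, Elane and Epcam higher, and their part in the results below was not tested. In RNA from sorted populations, fewer cells of a type and less RNA per cell cannot be told apart.

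Nuclear respiratory chain genes are known targets of the transcription factors NRF1, GABP (NRF2, an ETS factor) and YY1. The promoters of 4 members are shown because they hold such motifs and belong to called genes of complexes II to V, 3 of them higher and 1 lower in dKO. Each sequence is RefSeq's GRCm38.p6, the 250 bases before the annotated start, 5′ to 3′ on the gene's own strand, which is the minus strand for all 4. Capitals mark GCATGCGC (NRF1 core) and CCGGAAG (ETS/GABP) on either strand. Both strands' matches to the NRF1 core overlap in Cox6a1 and in Atp5k and form 1 run there.
Uqcr11, chr10:80406822-80407071: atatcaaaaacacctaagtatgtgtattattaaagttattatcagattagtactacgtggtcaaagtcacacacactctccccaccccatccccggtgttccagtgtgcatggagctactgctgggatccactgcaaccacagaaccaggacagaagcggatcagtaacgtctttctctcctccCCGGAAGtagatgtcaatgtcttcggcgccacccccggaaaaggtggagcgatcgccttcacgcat
Cox6a1, chr5:115348959-115349208: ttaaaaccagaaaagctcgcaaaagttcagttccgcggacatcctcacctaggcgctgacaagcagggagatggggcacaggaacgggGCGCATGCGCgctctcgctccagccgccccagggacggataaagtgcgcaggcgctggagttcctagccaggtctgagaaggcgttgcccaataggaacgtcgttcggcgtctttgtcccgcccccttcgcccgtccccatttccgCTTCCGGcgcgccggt
Sdhd, chr9:50603850-50604099: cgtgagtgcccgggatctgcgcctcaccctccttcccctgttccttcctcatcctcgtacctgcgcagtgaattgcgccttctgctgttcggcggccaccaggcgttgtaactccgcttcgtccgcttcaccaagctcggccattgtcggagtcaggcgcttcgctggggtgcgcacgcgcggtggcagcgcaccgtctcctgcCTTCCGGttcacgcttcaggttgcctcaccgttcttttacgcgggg
Atp5k, chr5:108434400-108434649: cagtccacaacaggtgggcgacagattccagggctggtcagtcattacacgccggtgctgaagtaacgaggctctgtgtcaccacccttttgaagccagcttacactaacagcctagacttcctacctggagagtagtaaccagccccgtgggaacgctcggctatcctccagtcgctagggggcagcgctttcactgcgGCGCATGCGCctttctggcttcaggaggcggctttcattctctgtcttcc

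The ETS/GABP letters began 66 bases before the start in Uqcr11, 46 before it in Sdhd and 16 before it in Cox6a1. The NRF1 core began 162 bases before the start in Cox6a1 and 50 before it in Atp5k. Uqcr11 also held the NRF1 core across its start, and Atp5k an ETS/GABP match from base 13 after its start, both outside the stretches shown. Motifs were counted in windows of 300 bases, 250 before and 50 after the start, for the 73 members that matched RefSeq's promoter table. Among their 78 windows, 12 held the NRF1 core (15.4%), against 3.80% of the 18961 windows of all genes tested and 2.71% of all 32851 windows. ETS/GABP letters stood in 18 windows (23.1%), against 12.1% of the windows of genes tested. The YY1 motif, AAGATGGC on either strand, stood in 10 windows (12.8%), against 3.20%. At least 1 of the 3 motifs was present in 43.6% of member windows and 17.6% of the windows of genes tested, at a median GC content of 58.0% and 57.7%. The motifs were found in both called and uncalled members, and a difference in frequency between them was not tested. Of 20 matched members called higher in dKO, 3 held the NRF1 core, 7 the ETS/GABP letters and 4 the YY1 motif, and of 51 uncalled members these counts were 8, 10 and 5. The members called lower held them as well, Atp5k the first 2 of these motifs and Ndufa3 the YY1 motif.

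Changes in the respiratory chain were small and ran mostly upward. In dKO arrays 21 members were higher, 2 were lower (Ndufa3 and Atp5k) and 66 were not called, so that 25.8% of members were called, against 23.1% of all genes (limma, adjusted p under 0.05). By direction, 23.6% of members were higher, against 13.1% of all genes, and 2.25% were lower, against 10.0%. The share of higher calls was close to that of well expressed genes. When the fit was restricted to the brightest 50% of genes, which held 82 members, 25.6% of these members and 26.7% of all such genes were higher. Lower calls in that fit were 2.44% of members and 19.1% of genes. Without wild-type 2 the counts in the fit over all genes were 13 higher and 1 lower, and without dKO 2 they were 15 and 1. The 3 dKO arrays all lay above the 3 wild-type arrays for 36 members and all below them for 4, while such separation upward held for 21.3% of all genes and downward for 16.5%. In the brightest 50%, separation upward held for 36 of 82 members and 3315 of 9876 genes. Separation downward held there for 4 members and 2341 genes. With each gene's variance estimated from its own 6 values alone, an alternative to limma's shared estimate, 8 members were higher and 0 lower after adjustment, against 7.05% and 5.94% of all genes. An unadjusted limma p under 0.05 was found for 32 of 89 members, against 33.0% of all genes. Repeated quantile normalization ended the calls of Ndufa7, Ndufs7, Uqcrb and Cox7a2, and cyclic loess normalization those of the same 4 genes and of Ndufc2, Sdha and Atp5j. The difference was positive for 63 members and negative for 26, with a median of 0.05, against 0.01 over all genes. Over all genes it was positive for 10291 and negative for 9461. In the brightest 50% it was positive for 62 of 82 members (median 0.08) and for 5581 of 9876 genes (median 0.03).

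**Figure D1:**
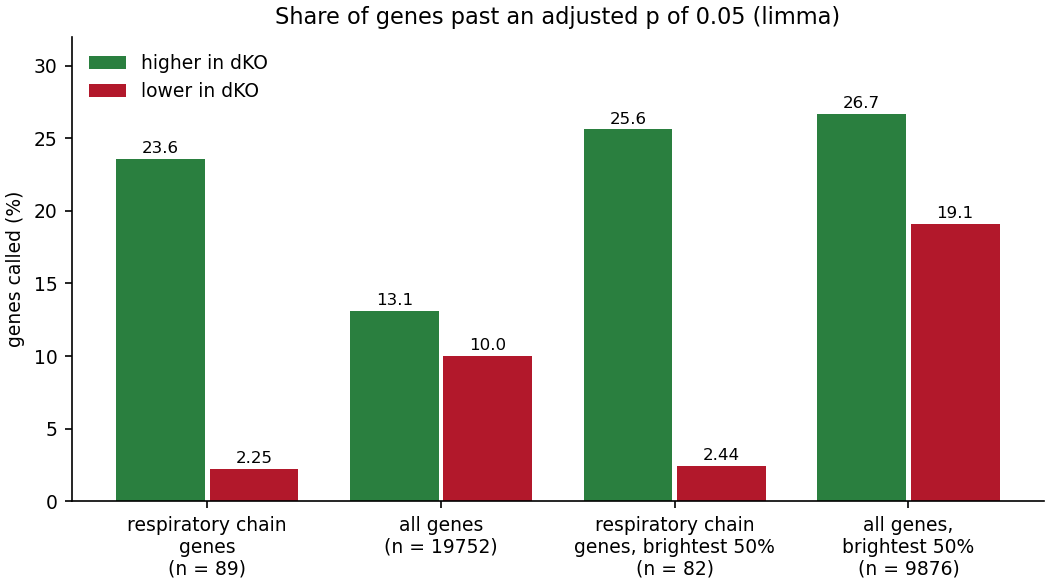
Bars give the percentage of genes called higher or lower in dKO at a limma adjusted p under 0.05, for respiratory chain genes and for all genes, in the fit over all genes and in a fit over the brightest 50%. Higher calls were 25.6% of members against 26.7% of genes in the brighter set, and lower calls 2.44% against 19.1%.

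No member changed 2-fold or more, whereas 159 genes of the whole array did (0.805%). The largest fold was 1.46, in Ndufs5, and 78 members differed by less than 1.2-fold. Members called higher rose by 12.1% to 45.7%, with a median difference of 0.26 on the log2 scale, near the 0.28 of all genes called higher. The median standard error of a member was 0.05, and the median 95% interval reached 0.12 to either side. For 53 of the 66 uncalled members the interval lay within 0.25 of 0, and for 57 of the 66 it included 0. Some called rises were smaller than 0.25, such as that of Sdha at 0.17, so uncalled members may hold changes of that size.

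By complex, the median difference was 0.07 in complex I, 0.15 in complex II, 0.17 in complex III and 0.05 in complex V. It was 0.02 in complex IV and 0.02 in the assembly factors, and both of these turned negative under cyclic loess normalization (-0.00148 and -0.0241), the assembly factors also after repeated quantile normalization (-0.00653). Single arrays moved these small medians: complex IV ranged from 0.00303 without wild-type 1 to 0.0348 without dKO 3, with 0.0140 without wild-type 2, 0.0153 without wild-type 3 and 0.00845 without dKO 1. The assembly factors ranged from -0.0206 without dKO 3 to 0.0664 without dKO 1, with 0.00802 without wild-type 2 and 0.00556 without dKO 2. Complex V gave 0.0262 without wild-type 3 and 0.0763 without dKO 3. Higher calls made up 10 of 34 members in complex I, 2 of 4 in complex II and 4 of 8 in complex III, and 2 of 19 in complex IV, 2 of 17 in complex V and 1 of 7 assembly factors. The share in complex I, 29.4%, was near the 26.7% of the brightest 50% of genes, while over all genes it was 13.1%. Differences between complexes were not tested. All members of complexes II and III had a positive difference, although Uqcrq, at 0.0017, turned negative under both of these normalizations.

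**Figure D2:**
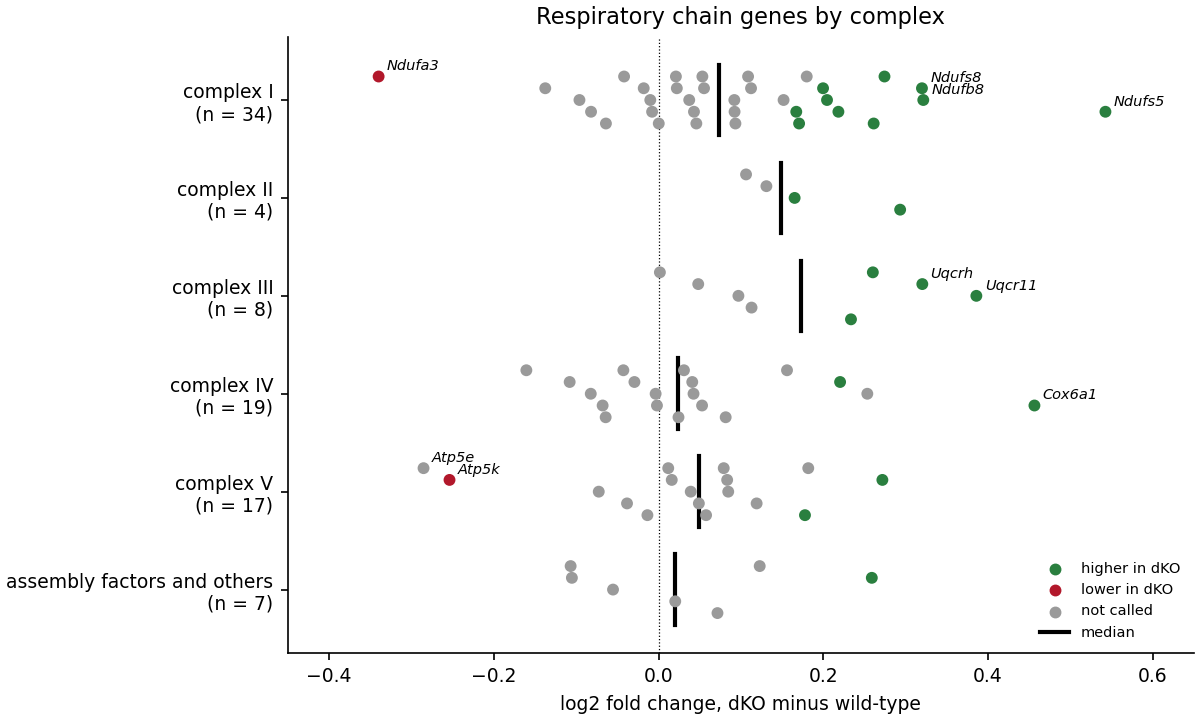
Each point is 1 of the 89 genes, placed by its log2 fold change (dKO minus wild-type) on the horizontal axis and by complex on the vertical axis, coloured by its call, with a black bar at the median of each complex. Medians lie at 0.15 and 0.17 in complexes II and III and at 0.02 in complex IV, and the 2 genes called lower, Ndufa3 and Atp5k, stand at the left.

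Complex I is built from core subunits, which carry out electron transfer and proton pumping, and a larger set of accessory subunits. Of the 6 nuclear core subunits, 3 were higher in dKO: Ndufs3, Ndufs7 and Ndufs8, which lie in the part that passes electrons to ubiquinone. Ndufs8, which binds iron-sulphur clusters, measured 10.43, 10.44 and 10.39 in wild-type 1 to 3 and 10.87, 10.72 and 10.63 in dKO 1 to 3. The lowest dKO array lay above all wild-type arrays, and dKO 1 stood highest. The rise was 0.32 ± 0.06 (SE, limma, adjusted p = 0.0049). Ndufs3 read 10.04, 9.97 and 9.90 in wild-type and 10.29, 10.21 and 10.23 in dKO arrays, again without overlap, a rise of 0.27 ± 0.05 (limma, adjusted p = 0.0041). Its second row gave 0.26. Ndufs7, which also binds an iron-sulphur cluster, rose by 0.17 ± 0.05 (limma, adjusted p = 0.037), a call that was lost whichever array was left out (highest adjusted p = 0.115) and with the replicate number as a block. Repeated quantile normalization reduced it to 0.0716 (limma, adjusted p = 0.356) and cyclic loess normalization to 0.125 (limma, adjusted p = 0.0965). The remaining core subunits were not called. Ndufv1, which binds NADH, had a difference of 0.18 ± 0.07 and was the member nearest outside the threshold (limma, adjusted p = 0.086), past it without wild-type 1 and with the replicate number as a block. Ndufv2 and Ndufs1 differed by 0.04 and -0.01, with 95% intervals of -0.07 to 0.14 and -0.13 to 0.11. The difference of Ndufv2 turned negative under cyclic loess normalization.

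Among 28 accessory subunits of complex I, 7 were higher and 1 was lower. Ndufa3, a small membrane subunit, was the only member of complex I called lower, although 8 others had a negative difference too. It measured 10.24, 10.33 and 10.27 in wild-type and 9.83, 9.96 and 10.04 in dKO arrays. Each dKO array lay below each wild-type array, and the fall by 0.34 ± 0.06 (limma, adjusted p = 0.0025) was called with any 1 array left out. The largest rise of all members was that of Ndufs5, an accessory subunit on the intermembrane side. It read 7.51, 6.98 and 6.97 in wild-type and 7.71, 7.66 and 7.72 in dKO arrays. Wild-type 1 stood apart from the other wild-type arrays and came close to the dKO arrays, which were tight. The rise was 0.54 ± 0.12 (limma, adjusted p = 0.0094). A related row annotated to both Ndufs5 and its pseudogene Ndufs5-ps, not counted as a member, differed by 0.21 (limma, adjusted p = 0.097 over all rows). Whether the pseudogene adds to the Ndufs5 value was not tested.

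The other accessory subunits that rose did so by 0.17 to 0.32. Ndufb2, a subunit of the membrane arm, measured 6.99, 6.85 and 6.88 in wild-type and 7.18, 7.19 and 7.13 in dKO arrays (0.26 ± 0.05, limma, adjusted p = 0.0047). Ndufb5, in the same arm, read 9.50, 9.44 and 9.39, then 9.65, 9.69 and 9.64 (0.22 ± 0.05, limma, adjusted p = 0.0093). Ndufa11, a membrane subunit, read 9.62, 9.59 and 9.59, then 9.80, 9.84 and 9.78 (0.20 ± 0.04, limma, adjusted p = 0.0077). For each of these 3 the genotypes were separated. A second row of Ndufa11, of nearly the same brightness, gave only 0.08 (limma, adjusted p = 0.32 over all rows), so both rows disagreed in size. Ndufb8 rose by 0.32 ± 0.08, Ndufa7 by 0.20 ± 0.06 and Ndufc2 by 0.17 ± 0.05. The calls of Ndufa7 and Ndufc2 were each lost without wild-type 2, wild-type 3, dKO 1 or dKO 2. Ndufs4, whose mutation causes Leigh syndrome, had the smallest difference of the complex, with a 95% interval of -0.11 to 0.11. In addition, 2 rows annotated to both Ndufb4 and its near-identical copy Ndufb4b, outside the list for that reason, differed by 0.30 and 0.29 (limma, adjusted p = 0.0022 and 0.0028 over all rows). The remaining rows left out in this way, annotated to both Gm12338 and Cox7c of complex IV, differed by 0.02, 0.01 and 0.03. None of these passed the threshold (limma, adjusted p = 0.848, 0.907 and 0.719 over all rows), and Cox7c is thus not among the members.

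Complex II, or succinate dehydrogenase, is also an enzyme of the citric acid cycle. Sdhd, a membrane anchor that helps to bind ubiquinone, measured 8.72, 8.72 and 8.56 in wild-type and 9.05, 8.88 and 8.96 in dKO arrays. The genotypes did not overlap, and the rise was 0.29 ± 0.06 (limma, adjusted p = 0.0073). Its promoter, shown above, held the ETS/GABP letters. Sdha, the flavoprotein that oxidizes succinate, read 10.71, 10.68 and 10.58 in wild-type and 10.82, 10.79 and 10.85 in dKO arrays. It rose by 0.17 ± 0.05 (limma, adjusted p = 0.042), but of the fits with 1 array left out only that without wild-type 1 kept the call (highest adjusted p = 0.132). Sdhc, the other anchor, read 9.96, 9.93 and 9.84, then 10.12, 10.02 and 9.97, with a difference of 0.13 ± 0.06 that was not called (limma, adjusted p = 0.136). Sdhb, the iron-sulphur subunit, read 9.88, 9.92 and 9.79, then 10.08, 9.93 and 9.90. These arrays overlapped, and the difference of 0.11 ± 0.06 was not called (limma, adjusted p = 0.275). The median of complex II, 0.15 with all arrays, was 0.11 without wild-type 3, the lowest wild-type array for all 4 genes, and 0.13 without dKO 1, the highest dKO array for 3 of them.

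In complex III, 3 of 5 small subunits and 1 of 3 core and Rieske proteins were higher. Uqcr11, one of the smallest subunits, measured 9.42, 9.36 and 9.21 in wild-type and 9.79, 9.72 and 9.63 in dKO arrays. All dKO arrays were above the wild-type arrays by more than the spread within either genotype, and the rise was 0.39 ± 0.07 (limma, adjusted p = 0.0021). A dimmer row of the gene gave 0.35. Uqcrh, the hinge protein at the cytochrome c docking site, read 10.75, 10.66 and 10.65 in wild-type and 11.13, 11.03 and 10.86 in dKO arrays. It rose by 0.32 ± 0.07 (limma, adjusted p = 0.0080), and dKO 3 was the lowest of its genotype. Uqcrfs1, the Rieske iron-sulphur protein of electron transfer, read 7.69, 7.62 and 7.62, then 7.95, 7.91 and 7.85. Its rise of 0.26 ± 0.05 (limma, adjusted p = 0.0036) came with tight replicates. Uqcrb, which contributes to ubiquinone binding, read 10.97, 11.08 and 11.17, then 11.46, 11.22 and 11.25. The wild-type arrays reached close to the lower dKO arrays, and with a rise of 0.23 ± 0.07 (limma, adjusted p = 0.046) it was the called member nearest to the threshold. Its call was lost without wild-type 1, wild-type 2, dKO 1 or dKO 3. The core proteins Uqcrc1 and Uqcrc2 differed by 0.05 ± 0.06 and 0.11 ± 0.05 and were not called (limma, adjusted p = 0.629 and 0.143). Uqcrq, a small subunit, differed by 0.0017 ± 0.07, with a 95% interval of -0.15 to 0.15.

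**Figure D3:**
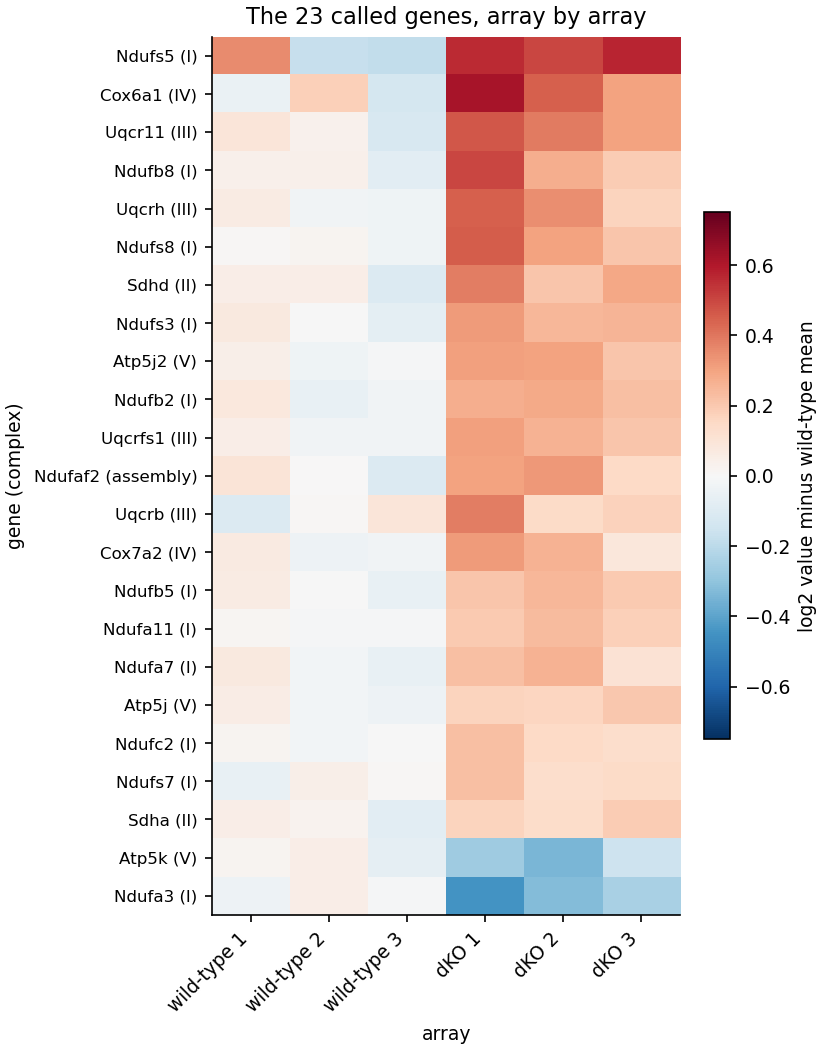
Rows are the 23 called genes with their complex in brackets, columns the 6 arrays, and colour gives the log2 value minus the gene's wild-type mean, red above and blue below. The dKO columns are red for 21 genes and blue for Atp5k and Ndufa3, and wild-type 1 is red for Ndufs5.

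Complex IV, cytochrome c oxidase, has common subunits and isoforms known from particular tissues. Of 11 common subunits 2 were higher. Cox6a1, the isoform found in most tissues, measured 9.74, 9.97 and 9.66 in wild-type and 10.41, 10.24 and 10.09 in dKO arrays. The lowest dKO array exceeded the highest wild-type array, and the rise of 0.46 ± 0.09 (limma, adjusted p = 0.0059) was the largest of the complex. Its promoter held both NRF1 and ETS/GABP letters. Cox7a2, likewise the widespread form of its subunit, read 8.82, 8.72 and 8.72, then 9.07, 9.01 and 8.84. The value of dKO 3 was just above wild-type 1, and the rise of 0.22 ± 0.07 (limma, adjusted p = 0.036) was lost without wild-type 2, wild-type 3, dKO 1 or dKO 2. Cox7a2l, a protein that joins complexes III and IV into supercomplexes, read 8.73, 8.60 and 8.52 in wild-type and 9.06, 8.98 and 8.57 in dKO arrays. Here dKO 3 lay among the wild-type arrays, and the difference of 0.25 ± 0.11 was not called (limma, adjusted p = 0.153), though it was called higher without dKO 3 (0.40) and with the replicate number as a block. Ndufa4 had the largest negative difference of the complex, -0.16 ± 0.07, with overlapping arrays (limma, adjusted p = 0.14), and was called lower after repeated quantile normalization and without dKO 3. Cox4i1, Cox6b1, Cox7b and Cox8a differed by 0.16, 0.08, 0.04 and 0.02 and were not called, although Cox4i1 was called higher without dKO 3, and Cox7b and Cox8a changed sign under cyclic loess normalization, Cox7b also after repeated quantile normalization.

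None of the 8 tissue or germline isoforms of complex IV was called, and all of their array values were below 7. Cox4i2, known from lung, lay at 6.60 to 6.77, Cox6a2, of heart and muscle, lay at 6.80 to 6.96, and the testis form Cox6b2 lay at 5.85 to 5.97. Cox7a1 and Cox8b, both of heart and muscle, lay between 5.35 and 5.53 and between 5.10 and 5.40. The testis forms Cox7b2 and Cox8c lay between 3.98 and 4.14 and between 5.63 and 5.78, and Ndufa4l2, a hypoxia-induced relative of Ndufa4, between 5.66 and 5.92. Except for Cox4i2 and Cox6a2 these values were below the array medians. Their differences ran from -0.11 to 0.05, with unadjusted limma p-values of 0.129 or more. No dKO array set lay wholly above or below the wild-type arrays in any of the 8.

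**Figure D4:**
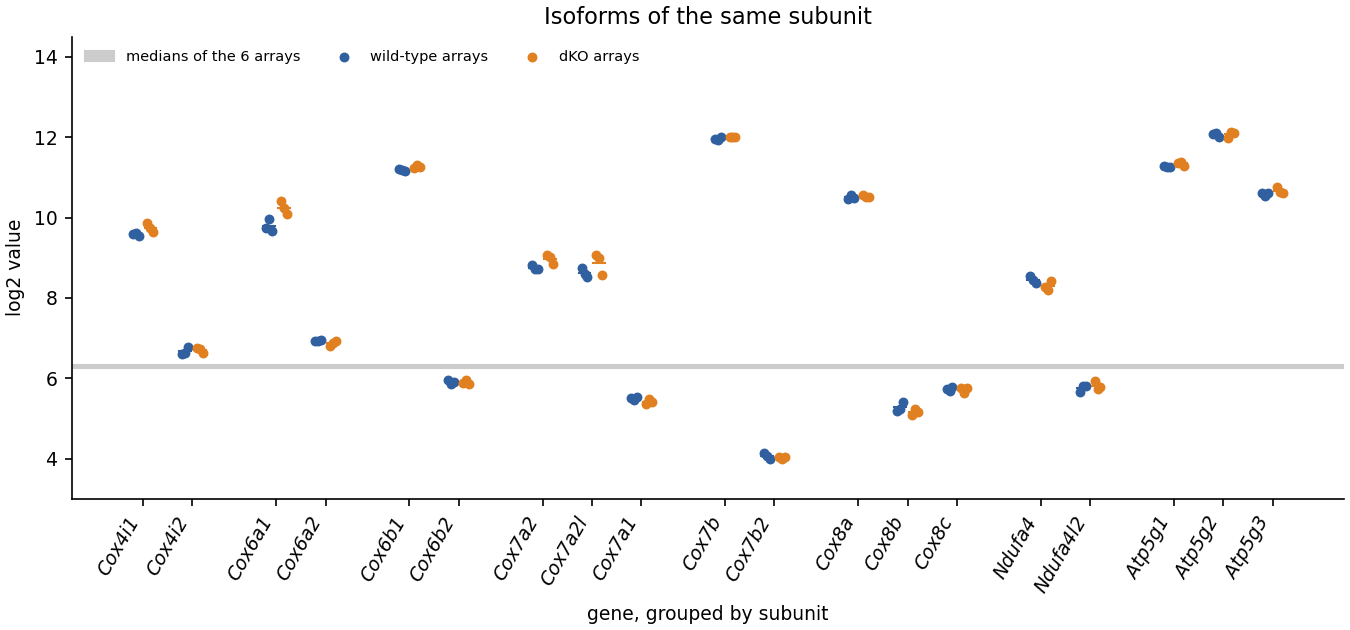
Points are the log2 values of single arrays (blue wild-type, orange dKO) for genes that encode forms of the same subunit, with a short line at each genotype's mean and a grey band at the medians of the 6 arrays. The points are for comparing genotypes within a gene, since rows of different genes are not on a common scale. Cox6a1 shows separate genotypes, and in Cox7a2l 1 dKO array lies with the wild-type arrays.

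In complex V, the ATP synthase, 2 of 9 stalk and membrane subunits were higher and 1 was lower. None of the 5 subunits of the catalytic F1 sector and none of the 3 c ring genes was called in limma's fit by genotype, and among them Atp5c1 alone had an unadjusted p under 0.05 (0.039). Under alternatives Atp5c1 was called higher with an intensity trend and robust variances, and Atp5e lower with the replicate number as a block. Atp5j2, subunit f, measured 10.62, 10.55 and 10.57 in wild-type and 10.89, 10.88 and 10.79 in dKO arrays. The genotypes were well separated, by 0.27 ± 0.05 (limma, adjusted p = 0.0030). Atp5j, the coupling factor F6 of the peripheral stalk, read 10.78, 10.70 and 10.68, then 10.89, 10.88 and 10.92. Its rise of 0.18 ± 0.05 (limma, adjusted p = 0.021) was lost without wild-type 2, wild-type 3, dKO 2 or dKO 3. Atp5k, subunit e, which takes part in pairing ATP synthases, went the other way. It read 8.38, 8.41 and 8.29 in wild-type and 8.09, 8.02 and 8.21 in dKO arrays. Each dKO array was below each wild-type array, with dKO 3 the closest, and the fall by 0.25 ± 0.06 (limma, adjusted p = 0.012) was lost without wild-type 2 or without dKO 2 (highest adjusted p = 0.054).

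In the F1 sector, Atp5e, the epsilon subunit, had the largest difference in size of complex V and the widest spread of it. It measured 8.76, 8.56 and 8.28 in wild-type and 8.60, 8.26 and 7.89 in dKO arrays, overlapping between the genotypes. The difference of -0.29 ± 0.16 was not called (limma, adjusted p = 0.269). The catalytic subunit Atp5b read 12.32, 12.31 and 12.33, then 12.45, 12.38 and 12.39. Although its arrays did not overlap, the difference of 0.08 ± 0.05 was not called (limma, adjusted p = 0.23) and turned negative after repeated quantile normalization. Atp5a1 and Atp5c1, the alpha and gamma subunits, differed by 0.06 and 0.12 and Atp5d, the delta subunit, by -0.07, none of them called. Atp5g1, Atp5g2 and Atp5g3 encode the same mature c subunit with different import sequences. Their differences were 0.08, 0.01 and 0.08, with 95% intervals of -0.02 to 0.19, -0.11 to 0.13 and -0.04 to 0.20, and that of Atp5g2 turned negative under both other normalizations.

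Of 7 complex I assembly factors, Ndufaf2 alone was called. This factor, related to the subunit Ndufa12, measured 6.36, 6.27 and 6.16 in wild-type and 6.56, 6.59 and 6.41 in dKO arrays. The dKO arrays were higher throughout, with dKO 3 just above wild-type 1, and the rise was 0.26 ± 0.07 (limma, adjusted p = 0.018). It was lost without wild-type 2, wild-type 3, dKO 1 or dKO 2. Differences of the other factors ran from -0.11 in Ndufaf7 to 0.12 in Ndufaf1, and Ndufaf3 had the smallest, 0.02.

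Arrays of the same genotype differed in how many members they held high. Relative to its own mean over the 6 arrays, a member was above that mean in 64 of 89 cases on dKO 1, 61 on dKO 2 and 49 on dKO 3, and in 36, 31 and 19 cases on wild-type 1, 2 and 3. Of the 3 dKO arrays, dKO 1 was the highest for 53 members, and of the 3 wild-type arrays wild-type 3 was the lowest for 52. The median deviation of members was 0.08 on dKO 1 and -0.07 on wild-type 3, and it lay between -0.03 and 0.02 on the other 4 arrays. Complexes I, II and III each separated the genotypes by this measure. Complex I had -0.01 to -0.09 on wild-type and 0.02 to 0.08 on dKO arrays, and complex II -0.03 to -0.15 and 0.05 to 0.16. Complex III had -0.06 to -0.10 on wild-type arrays and 0.01 to 0.15 on dKO arrays. In complex IV the medians were -0.02 to 0.0009 on wild-type and -0.03 to 0.03 on dKO arrays, which overlapped. Over all 25254 rows of the arrays, the 75th percentile of the values was likewise highest on dKO 1 (8.591) and lowest on wild-type 3 (8.512). The array pattern of the members may thus not be particular to them. Its share in the counts and medians above was not tested.

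**Figure D5:**
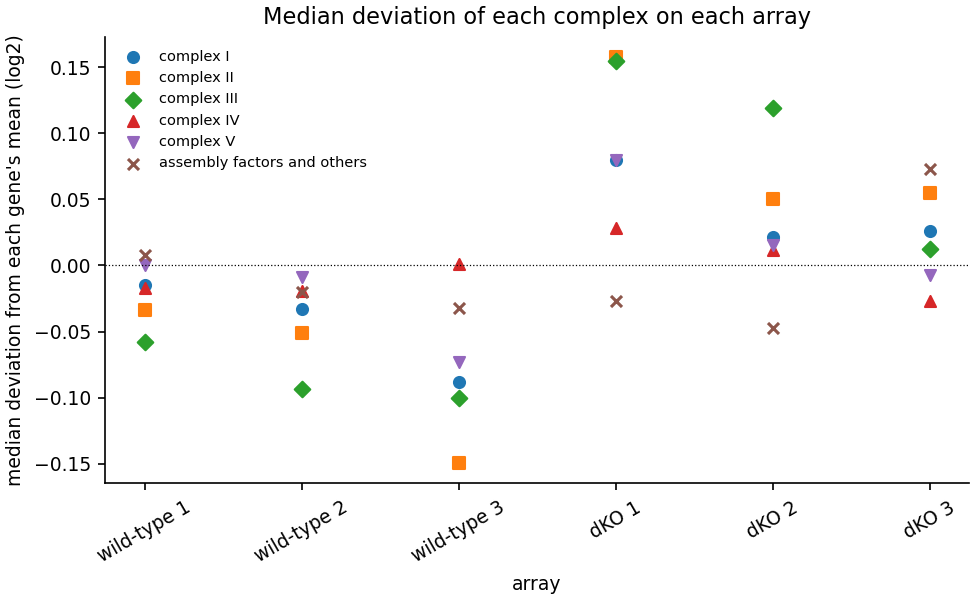
Each symbol is the median, over the genes of 1 complex, of the deviation of an array's log2 value from the gene's mean over all 6 arrays, by array. Complexes I, II and III lie below 0 on all wild-type arrays and above 0 on all dKO arrays. For complex II dKO 1 and wild-type 3 are the extremes, and complex IV stays within 0.03 of 0.

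Genes that work beside these subunits were counted in the same way. Of 41 measured electron carriers and assembly genes outside the naming rule, 10 were higher and 1 was lower, with a median difference of 0.09. All genes were called higher in 13.1% and lower in 10.0% of cases, and those of the brightest 50% in 26.7% and 19.1%, against which the counts given here should be read. Sdhaf4, an assembly factor of succinate dehydrogenase, rose by 0.41 ± 0.05 and Atpaf1, which assembles F1, by 0.35 ± 0.05, while Atpif1, an inhibitor of the ATP synthase, rose by 0.28 ± 0.04 and Ttc19, a complex III factor, fell by 0.31 (SE 0.05). Coenzyme Q synthesis had 2 of 12 genes higher and none lower, Coq5 at 0.39 ± 0.07 and Coq8a at 0.29 ± 0.06. In the citric acid cycle and pyruvate dehydrogenase 6 of 17 genes were higher and none lower, among them the dehydrogenase subunits Dlst (0.30 ± 0.05), Pdha1 (0.23 ± 0.04) and Dlat (0.25 ± 0.05). The 77 mitochondrial ribosomal protein genes, whose products translate the subunits encoded in mitochondrial DNA, had 20 higher and 2 lower, with Mrpl38 at 0.45 ± 0.06, Mrpl14 at 0.42 ± 0.06, Mrpl52 at 0.35 ± 0.05 and Mrpl33 at -0.67 ± 0.05. Among 20 regulators of mitochondrial DNA expression and biogenesis 7 were higher and 2 lower. Tfb1m, a methyltransferase of mitochondrial ribosomal RNA, rose by 0.68 ± 0.06 and Mterf3, a regulator of mitochondrial gene expression, by 0.36 ± 0.05, and Polg2, a subunit of the mitochondrial DNA polymerase, fell by 0.50 (SE 0.07). The subunits of GABP did not move one way, since Gabpb1 rose by 0.22 ± 0.05, Gabpb2 fell by 0.19 (SE 0.06, limma, adjusted p = 0.034) and Gabpa differed by 0.04 ± 0.04 and was not called (limma, adjusted p = 0.634). Nrf1 and Yy1 differed by -0.10 and 0.11 and were not called (limma, adjusted p = 0.267 and 0.113). The genes named here as changed, other than Gabpb2, had a limma adjusted p of 0.0079 or less. None of the 13 subunits encoded in mitochondrial DNA had a named row, so those are not analysed here.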

How the data were processed

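The authors hybridized RNA from sorted thymocytes to Affymetrix arrays (Mouse Gene 1.0 ST in the Methods, Mouse Exon 1.0 ST in the design text) and deposited 1 table of log2 values. Partek and RMA are the tools in the submitters' processing notes (versions not given in the sources used here). RMA brings the distributions of the arrays close together, so a shift of most genes together would not be seen, and differences of dim genes are compressed. Small differences between arrays remained in the deposited values, with medians from 6.268 to 6.323 and 75th percentiles from 8.512 to 8.591. No scanner files, counts or depth enter here, and precision is limited by the number of arrays. The table had 25254 rows, of which GEO's platform annotation gave 1 symbol to 21496, several to 1565 and none to 2193. Of the rows with 1 symbol, 21415 matched RefSeq (GRCm38.p6) by Entrez identifier. The 89 members came from 114 rows, and 6 rows with several symbols, 1 of them matching the rule, were left out.

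Genes (19752, brightest row each) were fitted on the deposited log2 values with limma 3.58.1 in R 4.3.3 (lmFit and eBayes, genotype as the only term, all 6 arrays), and p-values were adjusted by Benjamini-Hochberg over all of them, with 0.05 as the threshold. The script was tested on simulated data with known changes. Tables, promoter searches and figures used Python 3.11.15, pandas 2.3.3 and matplotlib 3.10.9. Members named were the called ones (up to 6 per complex by smallest p with all array values), the largest and smallest difference of each complex, isoform sets, all Sdh genes and the members on either side of the threshold, and for related gene lists up to 4 genes by smallest p. The Ndufb4, Ndufs5 and Cox7c rows outside the list, further uncalled subunits, and Gabpa, Gabpb2, Nrf1 and Yy1 were added after their values were seen. Members, lists, motifs and tests were chosen with earlier results of these data known. Alternatives were repeated quantile and cyclic loess normalization, the brightest 75% and 50% of genes, mean rows, robust variances with an intensity trend, Student's t-test per gene (the methods' test for other assays), blocking on the replicate number, leaving out single arrays, all rows, and Ndufa4 with Ndufa4l2 in complex I. The H3K27me3 ChIP data of the study were not analysed here.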

Additional observations from a re-analysis of the deposited data

How the results depend on the processing

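Counts of members called higher and lower were 17 and 3 after repeated quantile normalization (12.3% and 10.8% of all genes), 14 and 2 after cyclic loess normalization (10.9% of all genes higher and a larger share lower, 2376 genes against 2153), 21 and 2 in the brightest 75% and 50% of genes, 20 and 2 with mean rows and with all rows, and 22 and 2 with an intensity trend and robust variances. Student's t-test with Benjamini-Hochberg adjustment gave 8 and 0 members, and 1392 and 1173 of all genes. Leaving out each array in turn gave 13 to 20 higher and 1 to 3 lower, the fewest higher calls without wild-type 2. Of the 21 higher calls 13 were kept in all 6 of these fits, as was 1 of 2 lower calls. Cyclic loess normalization reduced the median difference of complex I to 0.0402 and of complex V to 0.00312. Over all 89 members 9 changed sign after repeated quantile normalization, 13 after cyclic loess normalization and 20 with some array left out, 0 of them called. Among the 47 members of the naming rule, the values after repeated quantile and cyclic loess normalization were -0.0130 and -0.0437 for Ndufs4, -0.0373 and -0.0417 for Uqcrq, -0.0158 and -0.00148 for Cox7b, 0.0195 and 0.0113 for Cox6b2, -0.0676 and -0.0304 for Atp5g2, and -0.00653 and -0.0241 for Ndufaf3, and -0.0215 for Cox8a after cyclic loess alone. With 1 array left out, differences ranged from -0.0174 to 0.0305 for Ndufs4, -0.0580 to 0.0718 for Uqcrq, -0.00350 to 0.0956 for Ndufa4l2, -0.0519 to 0.0122 for Cox8c, -0.00516 to 0.0838 for Cox4i2, -0.0348 to 0.0257 for Cox6b2, -0.0166 to 0.0518 for Atp5g2 and -0.0206 to 0.0760 for Ndufaf3. The cause of these shifts was not tested. Deviations of same-numbered arrays correlated at 0.099, 0.024 and 0.070. For dKO 1 and dKO 3 the same-numbered wild-type array gave the highest correlation, while dKO 2 correlated best with wild-type 3 (0.040). Correlations this low do not decide whether same-numbered arrays were handled together, which was not tested. With the replicate number as a block, 20 members were higher and 3 lower, 18 and 2 of them shared with the fit without it, and 1 member of complex II was higher. The median difference of all genes was 0.00574 on the deposited values, 0.00493 after repeated quantile normalization and -0.00205 after cyclic loess normalization.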
